A study of Penicillium oxalicum with 6 samples.

Results

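Genes POX01150 to POX01200 of the filamentous fungus Penicillium oxalicum are 51 of the 9834 gene IDs measured, chosen by their ID numbers alone once a rise within them had been seen in these libraries. All 51 IDs were present in every library. Within them, 18 consecutive IDs, POX01167 to POX01184, were each more abundant without POX06509, and of the 33 IDs on either side 1 was called higher, 1 was called lower, 24 were tested and not called and 7 had too few counts to be tested. Because the range was chosen from this comparison, its values are given as a description of these libraries and no p-value is attached to any of its genes.

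For every library, 1 g of mycelium was cultured for 24 h in shaken liquid medium at 28 °C with 1% Avicel, a microcrystalline cellulose. RNA of this mycelium was then sequenced. The 3 MuPOX06509 libraries, called the deletion libraries here, came from a mutant in POX06509, and the 3 Ku70 libraries from a mutant in Ku70, a protein of non-homologous end joining whose loss makes targeted gene deletion easier. The growth text names spores of the Ku70 mutant for all 6 libraries, but no label states that the POX06509 mutant also lacks Ku70. The letters F, S and T tell the libraries of a group apart, and values of single libraries are always given in that order. Nothing says that they were separate cultures, so the spread between them may be technical. The number of independent transformants behind each strain is not stated in those labels, so the missing gene and anything else that differs by strain cannot be told apart.

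As background, fungi that live on plant matter secrete cellulases and xylanases, and transcription factors switch the genes of these enzymes on when cellulose is present and sugars are scarce. In filamentous fungi, genes of one pathway, above all of secondary metabolism, often lie side by side on a chromosome and are transcribed together, and many such groups are close to silent in a given culture. The sources used here give no function for any of the 51 IDs and do not say whether ID numbers follow chromosome order. Neighbouring numbers are therefore described as neighbours in number only.

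The data give an expected count per gene, which is an estimated number of reads, and an FPKM, which sets it per gene length and per library size. Library totals were 14605326 to 15219424 expected counts, and a count of 0 allows up to 3 counts, or 0.197 to 0.205 CPM (counts scaled to library size). POX06509 had 0, 0 and 1 counts in the deletion libraries and 1405, 2580 and 1851 counts in the Ku70 libraries, in keeping with the strain labels. Correlations of log2(CPM + 1) between libraries of a group were at least 0.982 across tested genes. In RNA of whole mycelium, more cells that express a gene and more RNA per cell cannot be told apart.

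Summed over the 18 consecutive IDs, the deletion libraries held 7973, 10910 and 8708 counts, and the Ku70 libraries held 779, 909 and 926. Scaled to library size this was 618.1 ± 99.0 CPM (SD, n = 3) in the deletion and 57.5 ± 5.51 CPM (SD, n = 3) in the Ku70 mutant, a ratio of 10.7. Every deletion library lay far above every Ku70 library. Over the 33 other IDs the deletion libraries held 36194, 56130 and 55663 counts and the Ku70 libraries 43231, 46036 and 45650, so these sums overlapped between the strains. POX01158 and POX01198 held most of the counts in each of these sums, which therefore say little about the other IDs.

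**Figure D1:**
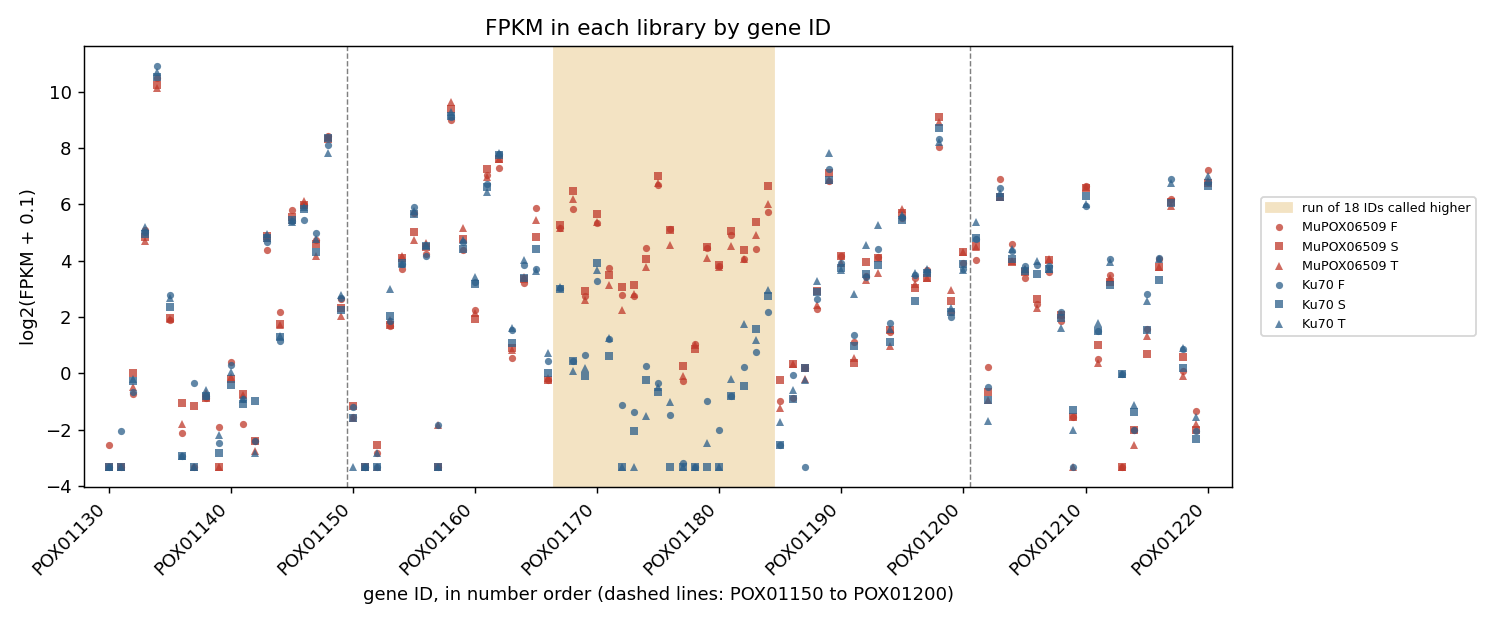
Abundance per length (FPKM), as log2(FPKM + 0.1), of each ID from POX01130 to POX01220 in number order, with 1 point for each of the 6 libraries (red, MuPOX06509; blue, Ku70; shapes, letters F, S and T). Within the shaded 18 IDs all 3 red points lie above all 3 blue points of the same gene, and outside it red and blue points overlap for most genes.

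Of the 51 genes, 44 had enough counts to be tested and 19 of these were called higher in the deletion by edgeR's quasi-likelihood test at a Benjamini-Hochberg adjusted p under 0.05. Over all 8336 tested genes 5.33% were called higher. The 19 were the 18 consecutive IDs and POX01165. POX01160 was the only member called lower, where 7.27% of all tested genes were. The other 24 tested members were not called. POX01172 to POX01182 would not have passed the low-count filter on their Ku70 counts alone. For these genes being tested already required counts in the deletion libraries, so their share among tested members is partly built in. Without the filter, 50 members were tested and 19 were called higher, among them all 18 of the run, against 4.89% of all tested genes. The 18 genes of the run stayed called in every fit that left out 1 library, while the background moved: without Ku70 library S 21 members and 12.5% of all tested genes were called higher, and without Ku70 library F 18 members and 3.45% were. Lower calls moved too: without Ku70 library S 2 members and 13.4% of all tested genes were called lower, and without Ku70 library T no member and 3.27% were. The groups did not overlap, with the deletion higher, for 22 of the 44 tested members, among them all 18 of the run, and for 14.9% of all tested genes. They did not overlap with the deletion lower for 4 members and for 16.4% of all tested genes. Outside the run, the groups did not overlap in either direction for 8 of the 26 tested members (30.8%), against 31.3% of all tested genes. The median fitted log2 fold change (deletion over Ku70) was 0.41 over the 44 tested members and 0.01 over all tested genes. The range was picked on this contrast, so these counts describe it and support nothing further.

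**Figure D2:**
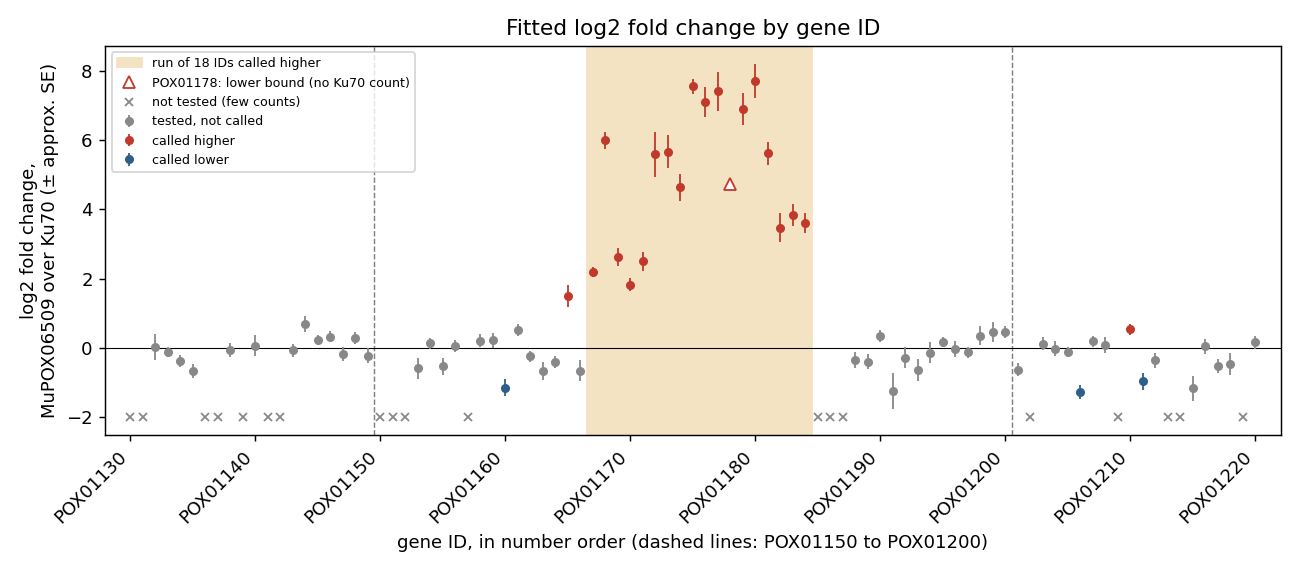
Fitted log2 fold change (MuPOX06509 over Ku70) with its approximate standard error against gene ID in number order, for tested genes; crosses mark untested IDs and the open triangle the lower bound of 4.73 for POX01178, which had no Ku70 count. The 18 shaded IDs lie between 1.83 and 7.70, with POX01178 at its bound, and the tested IDs outside them lie between -1.27 and 1.49.

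By the calls, the unbroken run began at POX01167. POX01167 had 1170, 1288 and 1199 counts in the deletion libraries against 279, 269 and 288 in the Ku70 libraries. Its FPKM was 36.2 ± 1.70 (SD, n = 3) without POX06509 and 8.13 ± 0.23 (SD, n = 3) with it. Both groups were tight and did not overlap, and summed counts scaled to library size gave a deletion over Ku70 ratio of 4.46 (exact 95% interval 4.13 to 4.81, which like all intervals here covers counting error only). POX01166, 1 number below, was lower in the deletion without overlap and was not called, at 14, 14 and 15 counts in the deletion and 24, 17 and 30 in the Ku70 mutant. POX01165, 2 numbers below, was called higher and stood apart from the run, with 175, 87 and 134 counts in the deletion libraries against 41, 66 and 39 in the Ku70 libraries. Its FPKM was 43.1 ± 14.8 (SD, n = 3) against 15.6 ± 4.95 (SD, n = 3), a count ratio of 2.76 (exact 95% interval 2.28 to 3.36). The groups did not overlap for POX01165, but its fitted log2 change of 1.49 became 1.37 without Ku70 library F and 1.33 without Ku70 library T, and it was not called in either case. It was called in 11 of 13 alternative fits.

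The first 5 genes of the run, POX01167 to POX01171, were all expressed to some extent in the Ku70 mutant, with 72 to 895 counts over its 3 libraries. POX01170 had the highest Ku70 level of the run, at 232, 359 and 304 counts in F, S and T and 12.5 ± 2.75 FPKM (SD, n = 3). In the deletion it had 922, 1172 and 977 counts and 43.6 ± 5.42 FPKM (SD, n = 3), which made it the smallest rise of the run, 3.50-fold (exact 95% interval 3.24 to 3.77). POX01169 went from 35, 20 and 25 counts in the Ku70 libraries to 152, 178 and 141 in the deletion, a 6.00-fold difference (4.72 to 7.70). POX01171 went from 27, 17 and 28 counts to 154, 133 and 104, a 5.53-fold difference (4.29 to 7.22). These 3 genes and POX01167 thus had the 4 smallest ratios of the run, and for each of them every deletion library lay above every Ku70 library.

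POX01168 lay among them and rose far more. It had 34, 34 and 26 counts in the Ku70 libraries and 1496, 2334 and 1947 counts in the deletion libraries. Its FPKM was 1.16 ± 0.18 (SD, n = 3) in the Ku70 mutant and 72.8 ± 15.3 (SD, n = 3) in the deletion, a count ratio of 62.6 (exact 95% interval 51.1 to 77.6). Per length, POX01168 was the lower of the pair POX01167 and POX01168 in each Ku70 library and the higher in each deletion library.

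The next 10 genes, POX01172 to POX01181, were close to silent in the Ku70 mutant, a grouping made after their values were seen. None of them had more than 25 counts over the 3 Ku70 libraries, and their mean FPKM there was 0 to 0.70. In the deletion their mean FPKM was 0.893 to 113. Together they held 41, 21 and 19 counts in the Ku70 libraries and 2456, 2794 and 2289 counts in the deletion libraries. Their share of the counts of the whole run was 3.21% ± 1.78 (SD, n = 3) in the Ku70 mutant and 27.6% ± 2.82 (SD, n = 3) in the deletion.

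POX01175 was the most abundant of all 18 per length in the deletion. It had 1151, 1438 and 1244 counts in the deletion libraries and 8, 6 and 7 counts in the Ku70 libraries, a ratio of 185.9 (exact 95% interval 121.5 to 300.7). By mean FPKM it stood at percentile 86.5 of all 9834 genes in the deletion and at percentile 13.0 in the Ku70 mutant. POX01176, the next number, had 263, 258 and 182 counts in the deletion against 2, 0 and 3, and 30.9 ± 6.30 FPKM (SD, n = 3) against 0.22 ± 0.20 (SD, n = 3). POX01179 had 256, 262 and 203 counts in the deletion against 5, 0 and 1, and 20.3 ± 2.93 FPKM (SD, n = 3) against 0.16 ± 0.22 (SD, n = 3). The Ku70 values of POX01176 and POX01179 were a handful of counts, and no deletion library came near them. Their count ratios were 143.2 (61.1 to 442.5) and 122.4 (56.0 to 334.7).

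POX01181 rose from 3, 3 and 5 counts in the Ku70 libraries to 186, 206 and 143 in the deletion, 49.6-fold (exact 95% interval 27.5 to 99.8). POX01174 rose from 13, 9 and 3 counts to 252, 194 and 159, 24.6-fold (16.5 to 38.4), the smallest ratio of these 10 genes. POX01173 rose from 6, 3 and 0 counts to 133, 178 and 144, 51.5-fold (26.9 to 113.4). All 3 were near silent in each Ku70 library and well above it in each deletion library. With so few Ku70 counts, single libraries set the size of some ratios. That of POX01173 was 102.8 without Ku70 library F and 34.3 without Ku70 library T. That of POX01176 was 238.3 without Ku70 library T, and that of POX01179 was 488.5 without Ku70 library F.

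In 4 genes of the run the 3 Ku70 libraries together held 3 counts or fewer. POX01172 had 2, 0 and 0 counts in the Ku70 libraries and 37, 46 and 26 in the deletion, a ratio of 55.5 (exact 95% interval 15.0 to 464.2). POX01177 had 1, 0 and 0 counts against 60, 93 and 71, a ratio of 228.2 (40.5 to 9053). POX01180 had 1, 0 and 0 counts against 91, 95 and 90, a ratio of 281.2 (50.1 to 11150). These 3 genes were silent or nearly so in the Ku70 mutant and had counts in every deletion library. For POX01180 the deletion level of 13.9 ± 0.45 FPKM (SD, n = 3) varied least of the run between libraries. All Ku70 counts of POX01172, POX01177 and POX01180 were in library F; without that library the ratios are only bounded, at 24.6 or more for POX01172, 50.6 or more for POX01177 and 62.3 or more for POX01180, against a floor of 3 counts over the group. Without Ku70 library T, where they had no count, the ratios were 37.0 for POX01172, 151.8 for POX01177 and 187.1 for POX01180, each with the same number of Ku70 counts over fewer reads. POX01178 had no count in any Ku70 library and 27, 24 and 27 counts in the deletion. It was at least 26.5-fold higher in the deletion, against the same floor, and at least 17.6-fold higher without Ku70 library F or without Ku70 library T, where the floor stands over fewer reads. All such bounds take the deletion counts as exact and are not ends of a 95% interval.

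The run closed with POX01182, POX01183 and POX01184, which again had a measurable Ku70 level. POX01184 had 85, 125 and 148 counts in the Ku70 libraries and 997, 1927 and 1247 in the deletion libraries. Its FPKM was 6.18 ± 1.66 (SD, n = 3) against 73.2 ± 25.1 (SD, n = 3), 11.9-fold higher in the deletion by counts (exact 95% interval 10.7 to 13.3). POX01183 had 31, 55 and 42 counts against 401, 799 and 574, a ratio of 14.1 (11.8 to 17.0). POX01182 had 15, 9 and 46 counts against 225, 285 and 230, a ratio of 10.8 (8.42 to 14.0) that was 20.9 without Ku70 library T. With all libraries used, the counting intervals of the 3 ratios overlapped.

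After POX01184 the level dropped at once in both strains, to a mean FPKM at POX01185 of 0.49 in the deletion and 0.11 in the Ku70 mutant. A drop in both strains does not by itself show where the rise stops. POX01185 had 6, 11 and 5 counts in the deletion libraries and 1, 1 and 3 in the Ku70 libraries, too few to be tested. Its groups did not overlap, and its count ratio was 4.48 (exact 95% interval 1.66 to 15.2). When every gene with a count was tested, POX01185 was not called, at a fitted log2 change of 2.12. POX01186 had 3, 8 and 8 counts in the deletion against 6, 3 and 4, and POX01187 had 4, 4 and 3 against 0, 4 and 3. Neither was tested, and their groups overlapped. POX01188, the first tested gene above the run, had 73, 115 and 83 counts in the deletion against 97, 113 and 151 in the Ku70 mutant and was not called. The upper end of the run thus lies at POX01184 by the calls, with POX01185 undecided at this depth.

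Across the 18 genes, 14 had counts at least 8 times higher in the deletion, counting POX01178 by its bound, where 0.78% of all tested genes did. The 4 others were POX01167, POX01169, POX01170 and POX01171. The median fitted log2 change of the 18 was 5.60, or 5.16 with POX01178 at its bound. The rise was not a common factor: the count ratios of the 17 genes with any Ku70 count ran from 3.50 to 281.2, the smallest at POX01170 and the largest at POX01180. Without POX01167 and POX01170, which held most of the Ku70 counts, the summed CPM of the run was 24.1 times higher in the deletion, against 10.7 times with them.

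**Figure D3:**
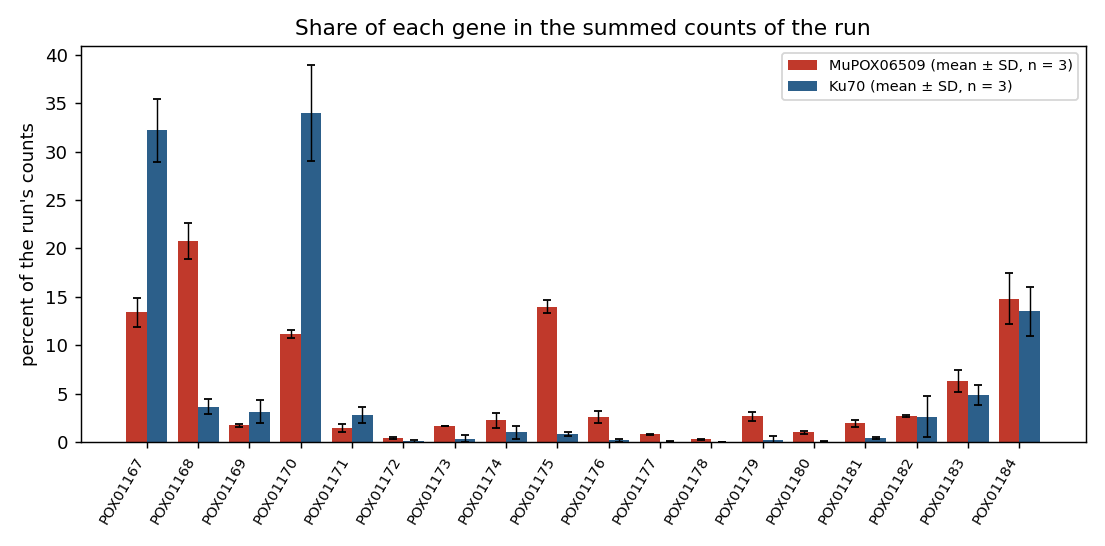
Percentage of the summed counts of the 18 IDs that each gene took, as mean and SD over the 3 libraries of MuPOX06509 (red) and of Ku70 (blue). POX01167 and POX01170 dominate the Ku70 bars, at 32.2% and 34.0%, and POX01168, POX01184, POX01175 and POX01167 are the tallest deletion bars.

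The make-up of the transcripts of the run differed between the strains. POX01167 and POX01170 together took 65.6%, 69.1% and 63.9% of its counts in the Ku70 libraries, and 26.2%, 22.5% and 25.0% in the deletion libraries. In the deletion the largest single shares were 20.8% ± 1.86 (SD, n = 3) for POX01168, 14.8% ± 2.62 (SD, n = 3) for POX01184 and 14.0% ± 0.69 (SD, n = 3) for POX01175. POX01184 took 13.5% ± 2.54 (SD, n = 3) in the Ku70 mutant, a difference smaller than the spread between libraries. Across the 18 genes, Spearman's rho between the mean FPKM in the 2 strains was 0.65, and across the 26 tested members outside the run it was 0.95. The run was defined by its calls in this contrast and 24 of the 26 others were not called, so a lower rho within it is partly built in. Ranks in the Ku70 mutant also rest on at most 25 counts for 10 of the 18 genes. These genes share their libraries and are not independent replicates.

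Relative to their neighbours in number, the 18 genes moved from below to above. Their median FPKM was 0.875, 0.585 and 0.695 in the Ku70 libraries and 21.6, 21.3 and 16.7 in the deletion libraries. The 40 flanking IDs, POX01130 to POX01149 and POX01201 to POX01220, had medians of 6.57, 4.26 and 6.12 in the Ku70 libraries and of 4.03, 3.96 and 3.83 in the deletion libraries. The 2 flanks differed: Ku70 medians were 1.61, 1.53 and 1.68 in the lower and 14.0, 9.3 and 13.0 in the upper. Deletion medians were 2.42, 2.11 and 1.98 in the lower and 7.84, 7.78 and 7.61 in the upper. Members before and after the run had medians of 9.3 to 13.1 in the Ku70 libraries and 9.15 to 10.7 in the deletion libraries. Of the 18 genes, 16 exceeded the flanking median in every deletion library, and 2, 3 and 3 did in the Ku70 libraries. The run holds only genes that were tested and called higher, whereas 12 of the 40 flanking IDs had too few counts to be tested. Its place above the flanks in the deletion is therefore partly built in. The deletion level of the run was an ordinary one for this transcriptome: the median FPKM of all genes was 17.9 to 18.9 in the deletion libraries, and the 18 genes lay between percentiles 15.0 and 86.5 of all genes by mean FPKM. In the Ku70 mutant they lay between percentiles 1.6 and 41.3.

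**Figure D4:**
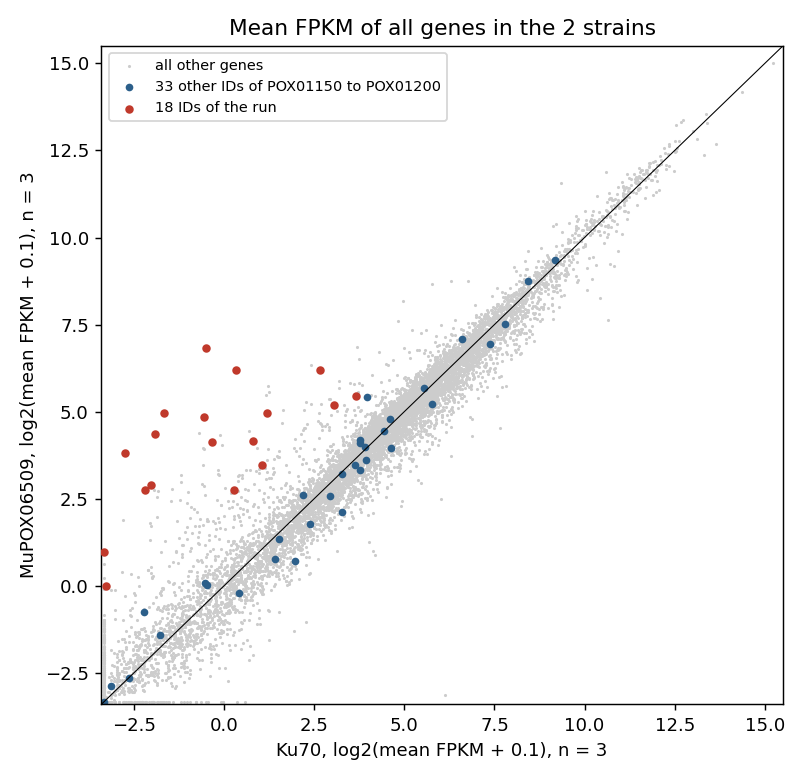
Mean FPKM over 3 libraries, as log2(mean FPKM + 0.1), in Ku70 (x axis) and MuPOX06509 (y axis) for all 9834 genes; the line marks equal values. The 18 IDs of the run (red) all lie above the line and mostly outside the cloud of other genes (grey), and the 33 other IDs of the range (blue) lie on both sides of it.

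Of the 40 flanking IDs, 28 were tested, with fitted log2 changes of -1.27 to 0.69 and a median of -0.06. One of them, POX01210, was called higher and 2, POX01206 and POX01211, were called lower. This is 3.57% higher and 7.14% lower, against 5.33% and 7.27% of all tested genes. None of the 20 IDs below POX01150 was called. POX01206 had 114, 132 and 107 counts in the deletion libraries and 310, 244 and 341 in the Ku70 libraries, a fitted log2 change of -1.27 ± 0.19 (SE). POX01211 had 32, 48 and 30 counts against 70, 69 and 85, a log2 change of -0.96 ± 0.25 (SE), and POX01210 had 802, 783 and 806 counts against 517, 650 and 542, a log2 change of 0.54 ± 0.16 (SE).

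Below the run, 13 of the 17 IDs from POX01150 to POX01166 were tested, and 11 of these were not called, with fitted log2 changes of -0.65 to 0.52. POX01158 was the most abundant of all members in both strains, at 507, 662 and 789.1 FPKM in the deletion libraries and 552, 560 and 615 in the Ku70 libraries. Its groups overlapped. POX01161 had 133, 151 and 125 FPKM in the deletion against 106, 98.8 and 86.5, the largest rise among the members below the run that were not called (log2 change 0.52 ± 0.16, SE). POX01162 had 156, 194 and 195 FPKM in the deletion against 219, 213.5 and 227 in the Ku70 mutant, and POX01163 had 20, 26 and 25 counts against 42, 30 and 45. The groups did not overlap for POX01161, POX01162 or POX01163, yet none of them was called. POX01154, POX01156 and POX01159 had log2 changes of 0.06 to 0.22, and POX01153, POX01155 and POX01164 of -0.59 to -0.41, all with overlapping groups.

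POX01160 had 22, 18 and 21 counts in the deletion libraries and 46, 43 and 52 in the Ku70 libraries. Its FPKM was 4.25 ± 0.46 (SD, n = 3) without POX06509 and 9.62 ± 0.89 (SD, n = 3) with it, a log2 change of -1.14 ± 0.25 (SE). The groups were well separated, but the call was lost without deletion library S (log2 change -1.06) and without Ku70 library T (log2 change -1.09). The 4 untested IDs below the run were POX01150, with 7 counts over the deletion and 5 over the Ku70 libraries, POX01152 with 3 and 1, POX01157 with 1 and 1, and POX01151, which had no count in any of the 6 libraries.

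Above the run, 13 of the 16 IDs from POX01185 to POX01200 were tested and none was called, with log2 changes of -1.24 to 0.46. POX01198 was the second most abundant member, at 264, 546 and 490 FPKM in the deletion libraries against 318, 415 and 294 in the Ku70 libraries. Its groups overlapped, and deletion library F was the lowest of all 6. POX01189 had 112, 138 and 116 FPKM in the deletion and 154, 118 and 225 in the Ku70 mutant. POX01191, the lowest of the 13 at a log2 change of -1.24 ± 0.51 (SE), had 42 counts in Ku70 library T and 7 to 15 in the other 5 libraries, and its log2 change was -0.49 without Ku70 library T. It was also the only member with a fractional count, 11.99 in deletion library F, a sign that a read was divided between genes. Ku70 library T was likewise the highest of all 6 libraries for POX01188, POX01189, POX01192 and POX01193. POX01190 and POX01200 were higher in each deletion library than in any Ku70 library without being called, at log2 changes of 0.35 and 0.46. POX01192 and POX01193 had log2 changes of -0.28 and -0.63. POX01194 to POX01197 and POX01199 had log2 changes of -0.14 to 0.46 with overlapping groups.

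Within the deletion group the 18 genes of the run did not all follow the libraries in the same way. Library S was highest for 14 of them and library F for 4, where S was highest for 27.4% and F for 42.5% of all 8336 tested genes. Library T was highest for none of the 18 and lowest for 10. POX01183 and POX01184 showed the widest spread, with 1.95 and 1.89 times the CPM of library F in library S, and POX01168 had 1.53 times. POX01174 and POX01171 went the other way, at 0.75 and 0.84 times. The ratio of the highest to the lowest deletion library was 1.07 to 1.95 over the 18 genes, with a median of 1.39, small beside the difference between the strains: the lowest deletion library exceeded the highest Ku70 library by a factor of at least 2.64 in CPM in each of the 17 genes with a Ku70 count. In the Ku70 group, library S was highest for 3 and library F for 8 of the 18, mostly on a few counts.

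**Figure D5:**
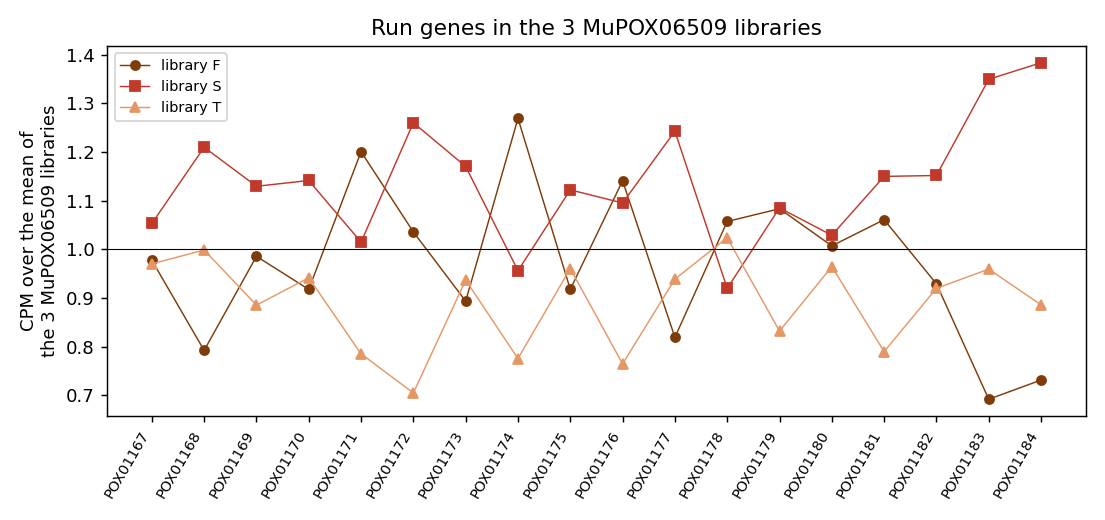
CPM of each of the 18 IDs in MuPOX06509 libraries F, S and T, divided by the mean of the 3 libraries for that gene; lines join the points of a library and carry no other meaning. Library S is the highest for 14 genes and lies furthest above the others at POX01183 and POX01184.

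No gene of the run had a fractional count, and nor did any of the 40 flanking IDs, where 4.65% of all genes had one. The lengths implied by counts, FPKM and library totals, which are effective lengths, ran from 369 bases for POX01172 to 5614 bases for POX01177, with a median of 940 bases over the 18 genes, 1051 over the 28 other members that had a value, and 1215 over 8677 genes. POX01177 was the longest of the run, ahead of POX01167 at 2259 bases, and 1.01% of genes were longer. POX01177 had 224 counts over the deletion libraries, at a mean FPKM of 0.89 ± 0.20 (SD, n = 3). The shorter POX01180 had 276 counts there, at 13.9 FPKM.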

How the data were processed

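RNA-seq libraries of 3 MuPOX06509 and 3 Ku70 samples were analysed. The authors deposited an expected count (estimated reads per gene) and an FPKM per gene and library, per the file headers; the submitters' processing notes list, without their roles, BWA 0.7.10-r789, DESeq2, Bowtie2 2.1.0 and RSEM 1.2.12. Neither a genome build nor an annotation or strand setting is stated there, so reads of overlapping genes may be mixed. FPKM is relative to the other genes of its library.

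Expected counts were rounded and tested over the whole table with edgeR 4.0.16 under R 4.3.3, by the quasi-likelihood F test with the group as only term, TMM factors and filterByExpr at a minimum count of 10, which kept 8336 of 9834 genes. A call needs a Benjamini-Hochberg adjusted p under 0.05 (two-sided). The SE is the fold change over the square root of F. Count ratios used library totals and exact conditional intervals (Python 3.11.15, scipy 1.17.1). The edgeR and DESeq2 fits with all libraries, and limma on CPM instead of FPKM, were also run on simulated counts. Changes simulated there were smaller than most ratios of the run, so that check does not cover such ratios. Implied length was taken from the library with the highest FPKM, where that was at least 1.

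Alternatives were edgeR without the filter, with DESeq2 size factors and with the letter as a block, DESeq2 1.42.0, limma 3.58.1 on log2(FPKM + 1) with and without a filter (at least 3 libraries with FPKM of 1 or more) and on log2(FPKM + 0.1), and each library left out. Members and groupings were chosen with earlier results of these data known. Every member is named; per-library values are given for called members and those next to the run. None of the 9834 IDs equals an identifier of the reference table used here (assembly ASM172317v3), so names, coordinates and sequences were left out. Libraries of a group differed by more than counting noise, with chi-square values per degree of freedom of 14.9 to 79.7 for each pair. These values cannot tell separate cultures from separate preparations of one culture.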

Additional observations from a re-analysis of the deposited data

How the results depend on the processing

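All 18 genes of the run stayed called higher in 11 of the 13 alternatives, and 17 of them in the other 2, limma on log2(FPKM + 1) and on log2(FPKM + 0.1), whose filter of FPKM of at least 1 removes POX01177 and so left a longest run of 10 IDs, POX01167 to POX01176, in both. Members called higher numbered 18 to 21 over the alternatives. Members called lower, 1 in the edgeR fit, numbered 3 with the letter as a replicate block (POX01155, POX01160 and POX01191) and 0 to 2 when 1 library was left out. The block called 21 members higher; over all tested genes it called 10.8% higher and 12.9% lower, against 5.33% and 7.27% without it. The letters are not known to pair the libraries: deviations of same-letter libraries from their group means correlated at 0.39 for F and 0.064 for both S and T, and only for F was the same letter the best match. Fitted log2 folds of genes with few Ku70 counts depended on the scale and on the libraries kept. POX01180 ranged from 3.83 in limma on log2(FPKM + 1) to 9.55 without Ku70 library F. POX01178 ranged from 1.51 in limma on log2(FPKM + 1) to 7.80 without deletion library S. POX01177, at 7.40 in the main edgeR fit, ranged from 0.91 in limma on log2(FPKM + 1) without a filter to 9.24 without Ku70 library F. In contrast, POX01167 stayed between 2.03 and 2.21. Depth limits the folds of the 4 genes with at most 3 Ku70 counts.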
